A study of Mus musculus with 4 samples.

Results

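The cells described here are endothelial cells of the mouse heart that carried messenger RNA of Cldn11, Enpp2, Aqp8 and Lsamp, genes that mark 1 kind of valve endothelium. They were chosen cell by cell from single-cell RNA sequencing of 4 libraries. A cell was taken if it held at least 1 transcript count (unique molecular identifier, UMI) of the endothelial genes Pecam1, Cdh5 or Egfl7, at least 2 UMIs of the 4 choosing genes in sum, and more of these than of Pthlh, Wnt4, Nppc and Adamts8 in sum, which mark a second valve population. This choice took 516 of the 21920 cells: 13 of 5732 at embryonic day (E) 12, 57 of 6062 at E15, 422 of 5884 at postnatal day (P) 2, and 24 of 4242 in the adult of 8 weeks. They were compared with cells of the same library that held at least 1 UMI of the endocardial genes Npr3 or Tmem108 and none of the 8 valve genes. These endocardial comparison cells numbered 1646, 2189, 1291 and 144. No endothelial UMI was required of them, unlike the chosen cells. At E12 and E15, 28.1% and 11.6% of them held 2 or more UMIs of cushion mesenchyme and fibroblast genes, as did 38.5% and 33.3% of the chosen cells.

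All animals were C57Bl6J, with no transgene or treatment in the groups used here. Samples of several animals were pooled (37 at E12 and 48 at E15, then 21 at P2 and 6 adults), embryonic cells being collected in several rounds of dissociation, sorting and freezing, the CD31+/CD45- fraction was sorted and frozen, and each stage was run as 1 library. Enzyme digestion differed between stages, E12 and E15 cells were thawed with removal of dead cells and P2 and adult cells were sorted again, so stage and handling cannot be told apart. With 1 library per stage there is no replicate and no test: the 95% intervals given below are exact counting intervals, which cover counting error only and not the spread between cells, animals or libraries. Depth differed by stage. The median cell held 1241, 1013, 4531.5 and 1510 UMIs in stage order, and the chosen cells held 1562, 1277, 5106.5 and 3785.5. With 13, 57, 422 and 24 cells summed, 1 UMI in the chosen cells was worth 37.9, 10.3, 0.409 and 9.68 CPM, the usual unit in which the counts of a group are scaled to a common total. Between 25 and 60 cell barcodes recurred between any 2 libraries, and 11 of the chosen cells carried a barcode that was also present in another library.

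Valve leaflets arise from endocardial cushions, in which endocardial cells lining the lumen give rise to the mesenchyme below and then remain as a continuous endothelial cover. The side of a leaflet that faces away from the main stream and the side that meets it carry different transcription programmes, and Prox1 and Foxc2, transcription factors best known from lymphatic vessels and their valves, mark endothelium on the side of disturbed flow. Claudin-11 (Cldn11) is a tight junction protein, autotaxin (Enpp2) is a secreted enzyme that makes the signalling lipid lysophosphatidic acid, aquaporin-8 (Aqp8) is a water channel and Lsamp is a surface protein of the immunoglobulin family. Periostin (Postn) is a matrix protein of cushions and valves.

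The choosing genes lie on 4 chromosomes of GRCm38: Cldn11 at chr3:31149920-31164324, Enpp2 at chr15:54838901-54952892, Aqp8 at chr7:123462291-123468004 and Lsamp at chr16:39984361-42181679. The 250 bases before the RefSeq start of the 2 choosing genes with a single listed promoter are shown because their transcripts defined the cells, with matches to CACCC (either strand), the core of Krüppel-like factor motifs, in capitals. They lie at chr3:31149670-31149919 and chr7:123462044-123462293, both on the plus strand of GRCm38.p6, the second reaching 3 bases past the annotated gene start given above.
Cldn11: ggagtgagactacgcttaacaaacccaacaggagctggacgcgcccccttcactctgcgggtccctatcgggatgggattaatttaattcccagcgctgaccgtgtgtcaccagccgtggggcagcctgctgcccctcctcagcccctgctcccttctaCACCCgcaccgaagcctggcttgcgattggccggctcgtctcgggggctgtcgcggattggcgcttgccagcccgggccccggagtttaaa
Aqp8: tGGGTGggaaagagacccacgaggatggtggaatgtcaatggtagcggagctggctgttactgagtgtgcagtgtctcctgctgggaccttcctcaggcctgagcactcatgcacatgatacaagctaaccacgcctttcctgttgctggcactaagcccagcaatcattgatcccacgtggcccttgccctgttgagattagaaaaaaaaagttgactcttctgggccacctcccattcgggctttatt
Each window held 1 such match, a motif present in 52.0% of 32841 promoter windows of this length, and neither held the forkhead motif TGTTTAC on either strand, which 3.17% of windows held.

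Chosen cells were most frequent at P2. They made up 7.19% of endothelial cells (95% exact Clopper-Pearson interval 6.54 to 7.88; 422 of 5871), against 1.36% at E15 (1.03 to 1.76; 57 of 4195), 0.584% in the adult (0.375 to 0.868; 24 of 4109) and 0.475% at E12 (0.253 to 0.811; 13 of 2737). The choice needs at least 2 UMIs, so these shares follow depth. With every cell thinned to 500 UMIs the shares were 0.929% at P2 (0.668 to 1.26), 0.433% at E15 (0.224 to 0.755), 0.141% in the adult (0.0459 to 0.330) and 0.128% at E12 (0.0155 to 0.461), after leaving out 83 cells at E12 and 364 at E15 that were shallower. At equal depth the P2 interval lay above those of E12 and the adult, whereas the E15 interval overlapped with those of all of the other 3 stages. The plot of shares by stage shows both sets of values.

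**Figure D1:**
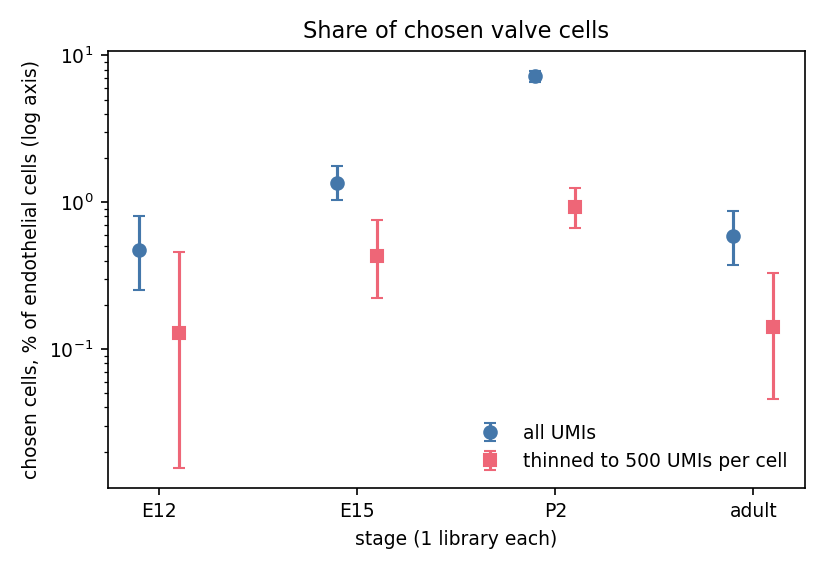
Share of chosen valve cells among endothelial cells in percent, on a log axis, at each stage, with all UMIs (circles) and after thinning to 500 UMIs per cell (squares); bars are 95% exact intervals for counting error. The P2 share was 7.19% with all UMIs and 0.929% after thinning, the highest point of both series.

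The choosing genes contributed unequally, and their balance differed between stages. At P2, 262 of 422 chosen cells held Cldn11, 264 held Enpp2, 115 held Lsamp and 69 held Aqp8, and Cldn11 made up 49.0% of the 3060 choosing UMIs. At E15, Cldn11 gave 50.3% of 161 choosing UMIs and Aqp8 21.7%. All 13 cells at E12 held Cldn11, which gave 85.7% of 28 UMIs. In the adult, 22 of 24 cells held Enpp2 and only 3 held Cldn11, and Enpp2 was the sole source of the choice in 15 of the 24. The number of choosing UMIs per cell ranged from 2 to 60 at P2, with a median of 4: 136 cells held 2, 56 held 3, 124 held 4 to 9 and 106 held 10 or more. At E15 the highest cell had 8, and at E12 it had 3. Just outside the threshold, 429 endothelial cells at P2 had a single choosing UMI, and 94 did at E15.

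Each choosing gene was then measured in cells chosen with the other 3 genes alone. At P2, Cldn11 was at 404 CPM in 261 cells chosen without it and at 40.7 CPM in comparison cells chosen without it, a 9.92-fold ratio (8.60 to 11.5), and 38.7% of the first held a Cldn11 UMI against 7.92% of the second and 3.89% of coronary capillary cells, at median depths of 5316, 4467.5 and 4371 UMIs. Enpp2 was 8.46-fold higher (7.44 to 9.64; 43.0% against 16.1% of cells), Lsamp 31.7-fold (19.6 to 54.6; 23.4% against 1.22%) and Aqp8 53.2-fold (29.2 to 108; 14.7% against 0.692%). The same 4 ratios lay above 1 with their intervals at E15: 28.5 for Cldn11 (16.5 to 47.9), 39.8 for Enpp2 (11.5 to 143), 154 for Aqp8 (51.6 to 620) and 24.3 for Lsamp (8.92 to 64.6). At E12, only 1 cell could be chosen without Cldn11, and the intervals for Enpp2, Aqp8 and Lsamp all reached below 1. In the adult the 3 ratios with a UMI in comparison cells were 30.2 for Cldn11 (7.22 to 268), 14.2 for Enpp2 (9.21 to 22.0) and 43.3 for Lsamp (6.15 to 1877), but the Cldn11 UMIs came from 3 cells. At E15 and P2 each of the 4 genes was higher in cells chosen by the other 3 than in comparison cells, although 252 of the 422 chosen cells at P2 held only 1 of the 4. The 4 genes had been put together with earlier results of these data known, and the comparison cells held none of the other 3. These ratios are therefore a description and not separate support for the group.

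Markers of other cells were counted before any further comparison. At E12 and E15, 0 and 1 of the chosen cells also met a lymphatic choice (at least 2 UMIs of Mmrn1, Ccl21a and Reln) and 0 and 1 a capillary choice (at least 2 UMIs of Fabp4, Timp4, Car4, Kcne3 and Apln without Npr3 or Tmem108). At P2, 30 of 422 met the lymphatic choice, which was 7.11% of the chosen and 15.4% of the 195 lymphatic cells, and 97 met the capillary choice, 23.0% of the chosen and 2.68% of 3621 capillary cells. In the adult none met the lymphatic choice and 14 of 24, 58.3%, met the capillary choice. Leukocyte, erythroid and cardiomyocyte lists were near 0 in the P2 chosen cells: 1 of 422 cells held 2 UMIs of the 8 leukocyte genes and 1 of 422 held 2 of the 5 erythroid genes, and 18 cells, 4.27%, held 2 of the 7 cardiomyocyte genes, against 4.57% of comparison cells. The cushion mesenchyme and fibroblast list was not near 0. At P2, 299 of 422 chosen cells, 70.9%, held 2 UMIs of its genes, against 43.2% of comparison cells. Ptprc, the gene of CD45, was at 0 in the chosen cells at P2 and E15.

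In the adult the label did not hold for all cells. Of 24 chosen cells, 4 carried 331 to 426 UMIs of 8 fibroblast genes, against at most 85 in the other 20, had at most 2 UMIs of the endothelial choosing genes and no Postn, and held 98.7% of the UMIs of Gsn, a fibroblast-rich actin-binding gene. Another 7 carried 12 to 85 UMIs of Fabp4, the fatty acid carrier of capillary endothelium, against at most 5 in the others, and 1 of these 7 had Postn. In the remaining 13 cells, 10 held Postn. The capillary choice given above was wider than this Fabp4 limit, and 9 of the 24 cells were left when cells that met it and the fibroblast-rich cells were both taken out. Adult sums over all 24 cells therefore mix cells with these different genes, and the genes that led the adult ratios (Gsn, Ccl7, Sfrp2, Mfap4 and Ccl2) were genes of fibroblasts or inflammatory chemokines. At E12 the support was thin: 13 cells, of which 4 held Postn and 1 held Prox1. The small-droplet background at E12 (barcodes of at most 100 UMIs) held Postn at 314 CPM and Cldn11 at 21.9 CPM, near the 379 CPM of Postn in the chosen cells.

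At P2 the chosen cells were higher than endocardial comparison cells in the valve genes Prox1, Postn and Hapln1. They were lower in the endocardial gene Dlk1 and in 3 of 10 coronary genes, Fabp4, Rgcc and Aplnr. With cells of 2 or more mesenchyme or fibroblast UMIs left out of both groups, Postn was 1.07-fold (0.878 to 1.29) and Dlk1 no longer passed the 2-fold threshold. None of the 3 coronary genes was still 2-fold lower when cells rich in Fabp4 were left out of both groups, a removal that itself sets the Fabp4 value. Of 11195 genes with at least 20 UMIs in both groups together (the genes used for the choice left out), 67 were at least 2-fold higher, 0.598% of those tested, and 9 were at least 2-fold lower, 0.0804%, on the scale of log2 of CPM plus 20, and the median of all genes was at 0.01. At E15, where 8640 genes passed, 203 were higher (2.35%) and 434 lower (5.02%), and there counts per gene were far smaller. Over the 8592 genes that passed at both stages, 28 of the 44 higher at P2 were also among the 202 higher at E15. The 28 included Prox1, Postn, Pdgfra, Hapln1, Hbegf, Fst, Cd24a, S100a6, Nsg1, Thbd, Nkd1 and Fbn2. Of the 8 lower at P2 among these 8592 genes, 3 were also among the 433 lower at E15: Fabp4, Tmem88 and Dlk1.

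Of 7 further genes associated with valves, 3 were at least 2-fold higher at P2 and at E15 and these were the same 3 at both stages, Postn, Prox1 and Hapln1, against 0.598% and 2.35% of all genes. Postn and Prox1 were already known from earlier results of these data as markers of these cells. The count is therefore a description and not separate support for the label. Postn was at 952 CPM in chosen and 298 CPM in comparison cells at P2 (3.20-fold, 3.01 to 3.40), at 597 and 253 CPM at E15 (2.36-fold, 1.77 to 3.09), at 678 and 201 CPM in the adult (3.36-fold, 2.38 to 4.76), and at 379 and 181 CPM at E12 (2.097-fold, 0.999 to 3.90). It was higher in chosen cells in all 4 libraries, with an interval that reached below 1 only at E12. This direction turned when cells with 2 or more mesenchyme or fibroblast UMIs were left out of the chosen cells alone. Postn was then 0.620-fold at P2 (0.516 to 0.738) and 0.530-fold at E12 (0.0134 to 2.97), but 1.997-fold at E15 (1.29 to 2.95). Prox1 was at 135 and 19.2 CPM at P2 (7.05-fold, 5.70 to 8.76), 165 and 13.6 CPM at E15 (12.1-fold, 6.27 to 22.5), 126 and 46.7 CPM in the adult (2.69-fold, 1.19 to 5.98) and 75.7 and 5.95 CPM at E12 (2 UMIs in 1 cell). Hapln1, which links hyaluronan to proteoglycans in cushion matrix, was 10.9-fold higher at P2 (7.76 to 15.5), 9.47-fold at E15 (6.03 to 14.5) and 2.60-fold at E12 (1.45 to 4.33). Foxc2 was 2.22-fold higher at P2 (1.90 to 2.59), under the threshold once 20 CPM were added, and had only 2 UMIs in chosen cells at E15. Tgfbi, a collagen-binding matrix protein, went the other way, at 0.564-fold at P2 (0.5001 to 0.634) and 0.383-fold at E15 (0.104 to 0.992).

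These genes were carried by part of the chosen cells. At P2, Postn was found in 294 of 422 cells (highest cell 46 UMIs), Prox1 in 142 (highest 12) and Pdgfra in 116 (highest 10), against 620, 103 and 20 of 1291 comparison cells at a slightly lower depth. All 3 were found together in 53 chosen cells, 12.6%, and none of them in 79, 18.7%. Among the 106 cells with 10 or more choosing UMIs the corresponding numbers were 41, 38.7%, and 4, 3.77%, at a median of 5329 UMIs per cell, and among the 136 cells with 2 choosing UMIs they were 1 and 40 at 5106.5 UMIs. Cells with 10 or more choosing UMIs thus more often held all of Postn, Prox1 and Pdgfra than cells with 2. The part of depth in this was not tested, and Pdgfra belongs to the cushion mesenchyme and fibroblast list.

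Levels of Postn, Pdgfra and Prox1 followed the number of choosing UMIs at P2. Postn was at 298 CPM in comparison cells, 316 CPM in endothelial cells with 1 choosing UMI, 478 CPM with 2, 519 CPM with 3, 1079 CPM with 4 to 9 and 1619 CPM with 10 or more. Pdgfra went from 4.03 CPM in comparison cells through 3.67, 19.2, 21.7 and 113 CPM to 302 CPM, and Prox1 from 19.2 through 38.8, 40.9, 86.9 and 129.6 CPM to 282 CPM. Cells with a single choosing UMI, just outside the threshold, lay close to comparison cells for Postn, Dcn and Pdgfra, while cells just inside it lay between these and the highest class. Fabp4 went the other way, from 5878 CPM with 1 UMI and 2858 CPM with 2 to 995 CPM with 10 or more, as did Plagl1, an imprinted zinc finger gene, from 549 CPM in comparison cells to 93.6 CPM. Bmp4 stayed between 52.4 and 68.3 CPM in all 4 classes of chosen cells. The 429 cells with a single choosing UMI were not required to hold Npr3 or Tmem108. The plot of levels by choosing UMIs gives these series with their intervals.

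**Figure D2:**
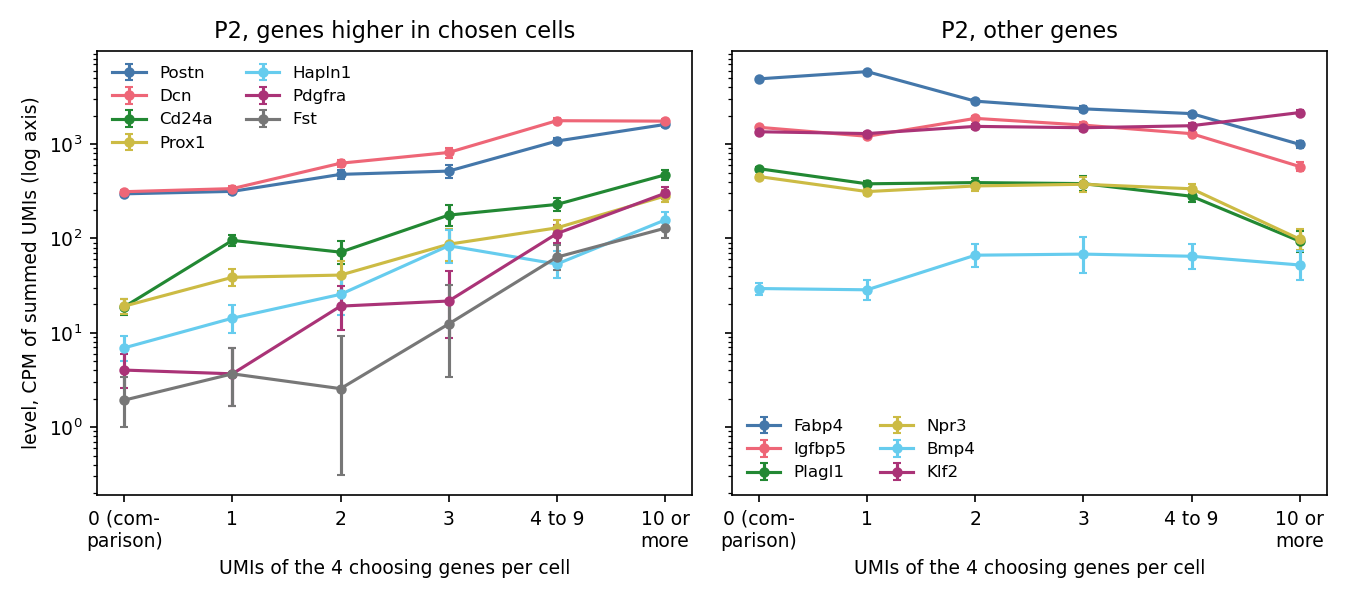
Levels at P2 in CPM of summed UMIs, on a log axis, against the number of UMIs of Cldn11, Enpp2, Aqp8 and Lsamp in a cell; the leftmost class is the endocardial comparison cells, and bars are 95% exact Poisson intervals. Postn is at 298 CPM on the left and 1619 CPM on the right, and Fabp4 is at 4927 CPM on the left and 995 CPM on the right, while Npr3 is high on the left because it served to choose the comparison cells.

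The P2 cells were also divided by whether they held Cldn11, Enpp2 or both. This split uses genes of the choice and was made after the values had been seen, so its values are a description. There were 146 cells with Cldn11 and no Enpp2, 148 with Enpp2 and no Cldn11, 116 with both and 12 with neither, at median depths of 4696.5, 5515, 4971 and 4575 UMIs. The lymphatic choice was met by 25 of the first, 1 of the second and 4 of the third, and the 25 were left out of the first group below. The groups differed in choosing UMIs: 10 or more were held by 29 of the 146, 9 of the 148 and 67 of the 116 cells, and the part of this in the levels below is shown only by the values for cells with 4 or more. Pdgfra, the receptor of platelet-derived growth factor A that also marks cushion mesenchyme, was at 19.4 CPM in the remaining 121 cells with Cldn11 alone, 57.9 CPM in those with Enpp2 alone and 331 CPM in those with both, where it was 17.1-fold above the first (9.58 to 33.6) and 5.71-fold above the second (4.23 to 7.85). Postn was at 457, 963 and 1654 CPM in the same order, Dcn (decorin, a collagen-binding proteoglycan) at 702, 1180.4 and 2099.6 CPM, and Fbn2 (fibrillin-2, of elastic microfibrils) at 25.8, 44.0 and 207 CPM.

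Other genes were compared between the same groups. Prox1 was at 115 CPM with Cldn11 alone, 42.9 CPM with Enpp2 alone and 214 CPM with both, so that it was lower with Enpp2 alone than with Cldn11 alone (0.374-fold, 0.247 to 0.559). With both over Cldn11 alone, Prox1 was 1.87-fold (1.398 to 2.52), and 1.22-fold (0.957 to 1.55) with the 25 lymphatic-choice cells kept. At E15 the same contrast of Enpp2 alone with Cldn11 alone gave 2.22-fold from 4 and 6 UMIs (0.461 to 9.37). Klf2, a transcription factor induced by laminar flow, was highest with Cldn11 alone at 2733 CPM, against 1154 CPM with Enpp2 alone (0.422-fold, 0.391 to 0.456) and 1759.7 CPM with both. Lum, the proteoglycan lumican, was at 523, 231 and 417 CPM, and Ccdc141 at 128, 26.8 and 172 CPM. Igfbp5, a marker of chamber endocardium, was lower in cells with both (705 CPM) than in either other group (2033 and 1620.0 CPM). At E15, Igfbp5 with both was instead 4.27-fold over Enpp2 alone, from 12 and 3 UMIs (1.15 to 23.6), and 1.38-fold over Cldn11 alone (0.644 to 2.76). Pdgfra and Postn with both were 2.85-fold (0.976 to 8.01) and 1.65-fold (0.785 to 3.29) over Cldn11 alone at E15, with intervals that covered 1. Of 144 UMIs of the lipase-related gene Pnliprp1, found in 26 cells, 140 lay in cells with both genes, 4 in cells with Enpp2 alone and 0 in cells with Cldn11 alone, but 33 of the 144 lay in 1 cell and 50% in 3 cells. With only cells of 4 or more choosing UMIs, 65, 51 and 99 in number, Pdgfra was 18.9-fold higher with both than with Cldn11 alone (8.999 to 47.5), Postn 4.49-fold (3.77 to 5.37) and Prox1 1.29-fold (0.956 to 1.76), so the interval for Prox1 covered 1 there. Among these cells Postn with Enpp2 alone was 4.33-fold above Cldn11 alone (3.61 to 5.24), and Prox1 was again lower with Enpp2 alone (0.457-fold, 0.279 to 0.730).

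**Figure D3:**
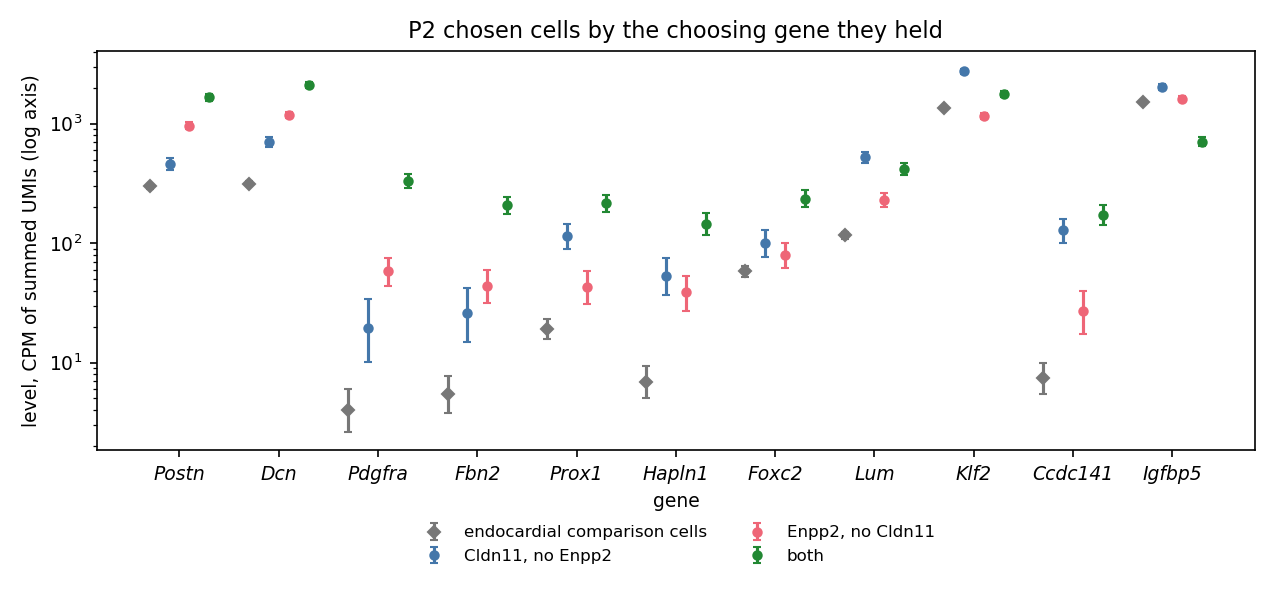
Levels at P2 in CPM of summed UMIs, on a log axis, of 11 genes in endocardial comparison cells (diamonds) and in chosen cells with Cldn11 but no Enpp2 (lymphatic choice left out), with Enpp2 but no Cldn11, and with both (circles); bars are 95% exact Poisson intervals. Pdgfra is at 19.4, 57.9 and 331 CPM in the 3 groups of chosen cells, whereas Klf2 is highest in cells with Cldn11 alone, at 2733 CPM.

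A few genes of the extracellular matrix stood out while most did not. Of 37 tested genes of the matrix list at P2, 3 were at least 2-fold higher (Postn, Hapln1 and Cthrc1, a secreted collagen-repeat protein at 139.5 against 48.8 CPM, 2.86-fold, 2.44 to 3.35) and none was 2-fold lower, against 0.598% and 0.0804% of all genes, with a list median of -0.08 beside 0.01 for all genes. Col4a1, a collagen chain of basement membranes, was 0.856-fold (0.8003 to 0.915) and Sparc, a collagen-binding protein, 0.714-fold (0.691 to 0.739), and the interval for Eln covered 1 (1.01-fold, 0.963 to 1.06). At E15, 2 of 36 were higher, Postn and Hapln1, against 2.35% of all genes, and 4 were lower, Tgfbi, Bgn, Mgp and Adamts9, against 5.02% of all genes. Fbn2 was 14.9-fold higher at P2 (10.4 to 22.2; 81.8 against 5.48 CPM) and 4.21-fold at E15, the P2 value being 3.31-fold (1.16 to 9.04) without cells that held 2 or more mesenchyme or fibroblast UMIs. Fbn2, like Fst, Coch, Fzd10 and other genes named below outside the lists, was picked after its values had been seen.

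Of 8 tested genes of the cushion mesenchyme and fibroblast list, 3 were 2-fold higher at P2, against 0.598% of all genes, Pdgfra, Dcn and Lum, and the list sum was 2.53-fold higher (2.44 to 2.63), with Dcn the most abundant by UMIs. Pdgfra was at 119 against 4.03 CPM (29.7-fold, 19.7 to 46.6), Dcn at 1276 against 313 CPM (4.07-fold, 3.85 to 4.31) and Lum at 358 against 116 CPM (3.09-fold, 2.80 to 3.42). The defining mesenchyme genes Sox9 and Prrx1 were at 0 in all 422 cells and had 8 and 4 UMIs in the 1291 comparison cells, too few to be tested, and Col1a1, the main fibrillar collagen chain of fibroblasts, had 8 UMIs in chosen and 139 in comparison cells (0.146-fold, 0.0619 to 0.296). Col1a2 and Col3a1 were at 1.05-fold and 1.12-fold. At E15, Pdgfra alone of the 10 was 2-fold higher, against 2.35% of all genes (257 against 14.0 CPM, 18.4-fold, 10.6 to 31.5), Sox9, Col1a1 and Col1a2 were 2-fold lower, against 5.02%, and Dcn and Lum had 7 and 6 UMIs in chosen cells, with intervals that covered 1. Pdgfra was thus high at both stages while Dcn and Lum were high at P2.

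Postn at P2 went with the cells that held these genes. When cells with 2 or more UMIs of the mesenchyme and fibroblast list were left out of both groups, 123 chosen and 733 comparison cells remained at P2, and Postn was then 1.07-fold (0.878 to 1.29), while Prox1 was 11.3-fold (8.13 to 16.0), Hapln1 15.9-fold (6.22 to 48.3), Cd24a 26.5-fold (19.2 to 37.4) and S100a6 7.91-fold (6.76 to 9.28). Fbn2 was then 3.31-fold from 8 UMIs (1.16 to 9.04) and Hbegf 2.75-fold (1.998 to 3.75). With such cells left out of the chosen cells alone, Postn was 0.620-fold (0.516 to 0.738), Fbn2 1.99-fold (0.798 to 4.39), Hapln1 4.14-fold (2.33 to 7.13) and Prox1 9.05-fold (6.99 to 11.7). At E15, with 38 and 1935 cells, Postn was 3.15-fold (2.03 to 4.70) and Prox1 11.8-fold (4.94 to 25.4) with such cells left out of both groups, and Postn was 1.997-fold (1.29 to 2.95) with them left out of the chosen cells alone, under the threshold with 20 CPM added. At E12, where 8 chosen cells with 1 Postn UMI remained, Postn was 1.09-fold (0.0275 to 6.205) and 0.530-fold (0.0134 to 2.97) in the same order. That step removed 70.9% of the chosen and 43.2% of the comparison cells at P2. The part that cells of another type had in these levels was not tested.

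Of the BMP and transforming growth factor beta list, 1 of 19 tested genes was 2-fold higher at P2 and none lower, against 0.598% and 0.0804% of all genes, and at E15 1 of 16 was higher and 3 were lower, against 2.35% and 5.02%. Bmp4, a bone morphogenetic protein of cushion formation, led at E15 (28 UMIs against 34, 288 against 13.2 CPM, 21.8-fold, 12.8 to 37.1), found in 16 of 57 chosen cells, and was 2.12-fold at P2 (1.70 to 2.65). Hbegf, a ligand of the epidermal growth factor receptor that limits valve growth, was 13.6-fold higher at E15 (7.40 to 24.3), 4.59-fold at P2 (3.84 to 5.49), 11.5-fold at E12 from 4 UMIs (2.95 to 32.5), and 3.32-fold in the adult (0.993 to 11.1). Fst (follistatin, which binds activins) was at 54.0 against 1.93 CPM at P2 (27.9-fold, 15.5 to 55.5), although 36 of its 132 UMIs lay in 1 cell. Inhba, which encodes the activin subunit, was the gene of the list past the threshold at P2 (6.48-fold, 4.65 to 9.14), where the list median was -0.08. Bmp2 had 69 and 43 UMIs (4.08-fold, 2.75 to 6.11), under the threshold with 20 CPM added. At E15, Bmpr2, Smad7 and Tgfb2 were 2-fold lower, each with 1 or 2 UMIs in chosen cells.

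Of 11 tested genes of the Wnt list, 1 was 2-fold higher at P2 and none lower, against 0.598% and 0.0804% of all genes. This was Nkd1, an inhibitor induced by the pathway, at 78.2 against 14.2 CPM at P2 (5.51-fold, 4.26 to 7.18) and at 72.0 against 16.3 CPM at E15 (4.42-fold, 1.68 to 9.93), and the list median was 0.32. Axin2, a further feedback gene, had 22 UMIs in chosen and 3 in comparison cells, and Dkk3 67 and 25. Fzd10, a Wnt receptor outside the list, was found in 50 of 422 chosen and 3 of 1291 comparison cells at P2, and in 6 of 57 and 2 of 2189 at E15. The ligand Wnt2 reached 4.55-fold at E15 (1.56 to 10.9) and, at P2, 1.38-fold (1.11 to 1.72). The ligand Wnt4 had served in the choice and was not compared.

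Enpp2 makes lysophosphatidic acid, and further genes of that lipid were compared. None of 6 tested genes was 2-fold higher or lower at P2 (list median -0.09), where 0.598% of all genes were higher and 0.0804% lower, so this count is near that of all genes. Plpp1, a phosphatase that breaks it down, was above comparison cells at P2 by 1.78-fold (1.62 to 1.94) and by 3.57-fold at E15 (2.09 to 5.79), where it was the 1 of 6 past the threshold, against 2.35% of all genes. The receptors Lpar4 and Lpar6 were at 0.476-fold (0.373 to 0.603) and 0.543-fold (0.426 to 0.685) at P2, and Lpar5 was not detected in chosen cells.

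Of the junction list, none of 15 tested genes at P2 passed the threshold in either direction (median 0.01), a count near the 0.598% and 0.0804% of all genes, and 1 of 10 was higher at E15, against 2.35%. Cldn5, the claudin of vascular endothelium, reached 9.62-fold at E15 (6.25 to 14.5) and, at P2, 1.71-fold (1.61 to 1.82). Its P2 level of 755 CPM was 563 CPM without the 30 cells that met the lymphatic choice and 341 CPM without those that met the capillary choice as well. Comparison cells, from which the capillary choice can remove none since they all held Npr3 or Tmem108, were at 441 CPM, so the last of these levels sets a filtered group beside an unfiltered one. The gap junction gene Gja4 was 1.91-fold higher (1.73 to 2.11) and Gja5, of arteries, 0.471-fold (0.303 to 0.709) at P2. Of the genes that respond to flow, Thbd (thrombomodulin, an anticoagulant receptor) was the only one of 14 past the threshold at P2, against 0.598% of all genes higher, at 2.48-fold (2.23 to 2.76). At E15, Thbd was higher (5.81-fold, 3.16 to 10.1) and Cxcl12 lower among 12 tested, against 2.35% and 5.02% of all genes. Klf2 was above comparison cells at P2 by 1.26-fold (1.21 to 1.31) and by 1.55-fold at E15 (1.17 to 2.01), and Klf4 1.16-fold at P2.

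Of the transcription factors of endocardium and valve, none of 18 tested at P2 passed (median 0.07), again near the 0.598% and 0.0804% of all genes. Nfatc1, which marks endocardium during valve growth, was 1.68-fold higher (1.40 to 2.01), Tbx20 3.06-fold with 47 and 39 UMIs, and Gata4, Hand2 and Foxc1 lay between 0.916 and 1.26. At E15, Nfatc1 was 3.32-fold higher (1.71 to 5.92), the only one of 16 past the threshold on that side, against 2.35% of all genes, and Irx3 and Irx5 were lower, against 5.02%, at 0 in chosen cells with 59 and 205 UMIs in comparison cells. In the list of endocardial-to-mesenchymal transition, 1 of 14 was higher at P2, Pdgfra, against 0.598% of all genes, and 2 of 14 at E15, against 2.35%, Pdgfra and Msx1 (12 against 27 UMIs, 11.8-fold, 5.44 to 24.1), while Zeb2 and Sox9 were 2-fold lower at E15, against 5.02%. Snai1, Snai2 and Msx2 had no UMI in the E15 chosen cells. Of the Notch list, none of 13 passed at P2 (median -0.03), where 0.598% of all genes were higher and 0.0804% lower, and at E15 none of 11 was higher while Dll4, Hey1 and Hes1 were lower, against 5.02% of all genes, Hes1 with 3 UMIs at 0.172-fold (0.0354 to 0.507).

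Genes of mitosis were higher at E15. All 10 were above comparison cells and 7 were at least 2-fold higher, against 2.35% of all genes, among them Ccnb1 (cyclin B1, 7.32-fold, 3.93 to 12.9), Ube2c (4.09-fold, 2.84 to 5.75) and Nusap1 (5.45-fold, 3.28 to 8.69), and the sum of the list was 3.05-fold higher (2.59 to 3.57). At P2 none of the 10 passed, where 0.598% of all genes did, with a sum 1.28-fold higher (1.20 to 1.37). The sum was 1.03-fold at E12 (0.673 to 1.52) and 11.6-fold in the adult (4.53 to 35.2; 203 against 17.5 CPM), where no gene of the list had enough UMIs to be tested singly. Chosen cells at E15 held a median of 1277 UMIs against 1017 in comparison cells, and the part of depth in this result was not tested. Of 7 heat shock genes, Hspb1 alone passed at E15 (4.94-fold, 3.34 to 7.11), against 2.35% of all genes higher, and none did at P2, against 0.598%, where Hspb1 was 2.16-fold higher (1.89 to 2.45). The immediate-early list was at a sum of 0.871-fold at P2 (0.848 to 0.895) and 1.29-fold at E15 (1.09 to 1.53), at 1.398-fold at E12 (0.992 to 1.92), and at 2.13-fold in the adult (1.94 to 2.35), where Fos, Junb, Egr1 and Atf3 of the 10 genes were 2-fold higher against 3.79% of all genes. These genes also respond to cell handling, whose part was not tested. The interferon list was at 0.767-fold at P2 (0.682 to 0.861).

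Outside the lists, the leading genes at P2 included genes of surface and secreted proteins. Cd24a, a small adhesion glycoprotein, was at 235 against 18.8 CPM (12.5-fold, 10.2 to 15.3) and at 319 against 45.0 CPM at E15. S100a6, a calcium-binding protein, was at 464 against 84.2 CPM at P2 (5.504-fold, 4.96 to 6.12). Pnliprp1 was found in 26 of 422 chosen and 2 of 1291 comparison cells, and Coch (cochlin) in 30 and 0. Ccdc141 was 12.9-fold higher (9.35 to 18.1), Procr, the receptor of protein C, 2.87-fold (2.45 to 3.36), and Serpine2, an inhibitor of proteases, 2.45-fold. Embryonic globin Hbb-y also passed, but 105 of its 150 UMIs lay in 1 cell and 32 in another.

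The 9 genes lower in chosen cells at P2 included several of capillaries and 1 of the chamber endocardium list. They were Aplnr, Ly6a, Fabp4, Tcf15, Tmem88, Rgcc, Gpihbp1, Ggt5 and Dlk1, from 0.159-fold for Dlk1 (0.0806 to 0.284) to 0.462-fold for Gpihbp1 (0.417 to 0.511). The comparison cells at P2 were themselves mixed: 419 of 1291, 32.5%, held 10 or more Fabp4 UMIs, against 83 of 422, 19.7%, of chosen cells. Without such cells in either group, Fabp4 was 0.713-fold, a value that the removal by Fabp4 itself sets, Aplnr 0.663-fold, Rgcc 0.564-fold, Gpihbp1 0.903-fold and Ly6a 0.598-fold, whereas Tcf15, Ggt5 and Dlk1 were at 0.389, 0.295 and 0.140-fold, still past the threshold, and Tmem88 was at 0.412-fold, which no longer passed with 20 CPM added. Prox1, Postn and Pdgfra were then at 6.33, 2.90 and 30.0-fold. With cells of 2 or more mesenchyme or fibroblast UMIs left out of both groups instead, Ggt5, Rgcc, Ly6a and Aplnr passed. Tcf15 (0.553-fold, 0.446 to 0.680), Dlk1, Fabp4, Gpihbp1 and Tmem88 no longer did. Dlk1 then had 0 UMIs in chosen and 37 in comparison cells, where its level went from 30.9 to 11.1 CPM. Of 7 genes of chamber endocardium, Dlk1 alone passed at P2, against 0.0804% of all genes lower, and Plagl1 and Dlk1 at E15, against 5.02%, where Plagl1 was at 381 against 1261 CPM (0.302-fold, 0.212 to 0.417).

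Against the second valve population, chosen by Pthlh, Wnt4, Nppc and Adamts8 and numbering 174 cells at P2, the chosen cells shared some genes and differed in others. S100a6 was at 464 CPM in the first group and 428 CPM in the second (1.08-fold, 0.975 to 1.21), Fst at 54.0 and 40.7 CPM (1.33-fold, 0.948 to 1.89) and Nkd1 at 78.2 and 91.5 CPM (0.854-fold, 0.671 to 1.09), differences within counting error. Hapln1 was 0.630-fold (0.504 to 0.791), Hbegf 0.730-fold (0.617 to 0.865) and Ccdc141 0.712-fold (0.580 to 0.878) of the second population. Prox1 was 11.4-fold higher in the chosen cells (6.69 to 21.1), Pdgfra 23.5-fold (10.7 to 64.6), Fbn2 19.3-fold (8.14 to 60.2), Postn 3.07-fold (2.75 to 3.44), Foxc2 2.45-fold (1.86 to 3.27) and Gja4 3.36-fold (2.71 to 4.19). Lower in the chosen cells were the water channel gene Aqp1 (0.272-fold, 0.245 to 0.302), Klf4 (0.451-fold, 0.401 to 0.507), Klf2 (0.690-fold, 0.658 to 0.724), Inhba (0.338-fold, 0.268 to 0.425), Igfbp5 (0.384-fold, 0.367 to 0.402) and Vcan (0.494-fold, 0.401 to 0.608). At E15, with 33 cells of the second population, Pdgfra was 13.5-fold higher (2.203 to 552) and Postn 2.60-fold (1.38 to 5.32), Aqp1 0.175-fold (0.0829 to 0.342) and Klf4 0.115-fold (0.0213 to 0.413), while the interval for Prox1 covered 1 (2.87-fold, 0.822 to 15.4). Without the 30 cells that met the lymphatic choice, Prox1 at P2 was 9.63-fold higher than in the second population (5.63 to 17.9).

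Prox1 is also the master regulator of lymphatic endothelium, so the chosen cells were set beside 195 lymphatic cells at P2. Leaving out the 30 cells that met both choices, Prox1 was at 114 CPM in the chosen and 271 CPM in the lymphatic cells (0.421-fold, 0.356 to 0.497). The chemokine gene Ccl21a, at 1612 CPM in all chosen cells and 17513 CPM in lymphatic cells, was at 9.36 CPM in the rest, but it had served to leave cells out. Among the lymphatic genes that had not served, Lyve1, a hyaluronan receptor, and Flt4, the receptor of lymphatic growth factors, were at 60.6 and 18.3 CPM in these chosen cells. They were at 909 and 178 CPM in lymphatic cells (0.0667-fold, 0.0554 to 0.0798, and 0.103-fold, 0.0716 to 0.144) and at 79.7 and 20.1 CPM in endocardial comparison cells. Pdpn, which had not served either, was compared over all 422 chosen cells, with the 30 cells kept, unlike Lyve1 and Flt4 above. Pdpn was at 31.9 CPM against 4.99 CPM in comparison cells (6.39-fold, 4.17 to 10.0). Over the same cells all 6 tested genes of the lymphatic list lay above comparison cells, Pdpn and Ccl21a at least 2-fold, against 0.598% of all genes. The list sum was 5.29-fold higher (5.03 to 5.58), with the 30 cells kept. Postn (11.5-fold, 9.48 to 14.1), Dcn (69.5-fold, 46.6 to 109) and Hbegf (11.4-fold, 6.91 to 20.1) were higher in the chosen cells than in lymphatic ones, and Cldn11 was itself at 165 CPM in lymphatic cells. Foxc2 and Gata2, shared by valve endothelium and lymphatic valves, were 2.49-fold and 2.44-fold higher in the chosen cells. All 7 genes of the list for lymphatic collecting vessels and valves lay above endocardial comparison cells at P2. None was at least 2-fold higher with 20 CPM added, a count near the 0.598% of all genes. Of 6 tested at each other stage, Nfatc1 was 2-fold higher at E12, against 7.62% of all genes, and Itga9 and Nfatc1 at E15, against 2.35%. In the adult Foxc2 and Gja1 were higher and Gja4 lower, against 3.79% and 7.83%, and the list sum was 0.833-fold (0.612 to 1.12). The chart of levels in 5 groups of cells shows where these sets part.

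**Figure D4:**
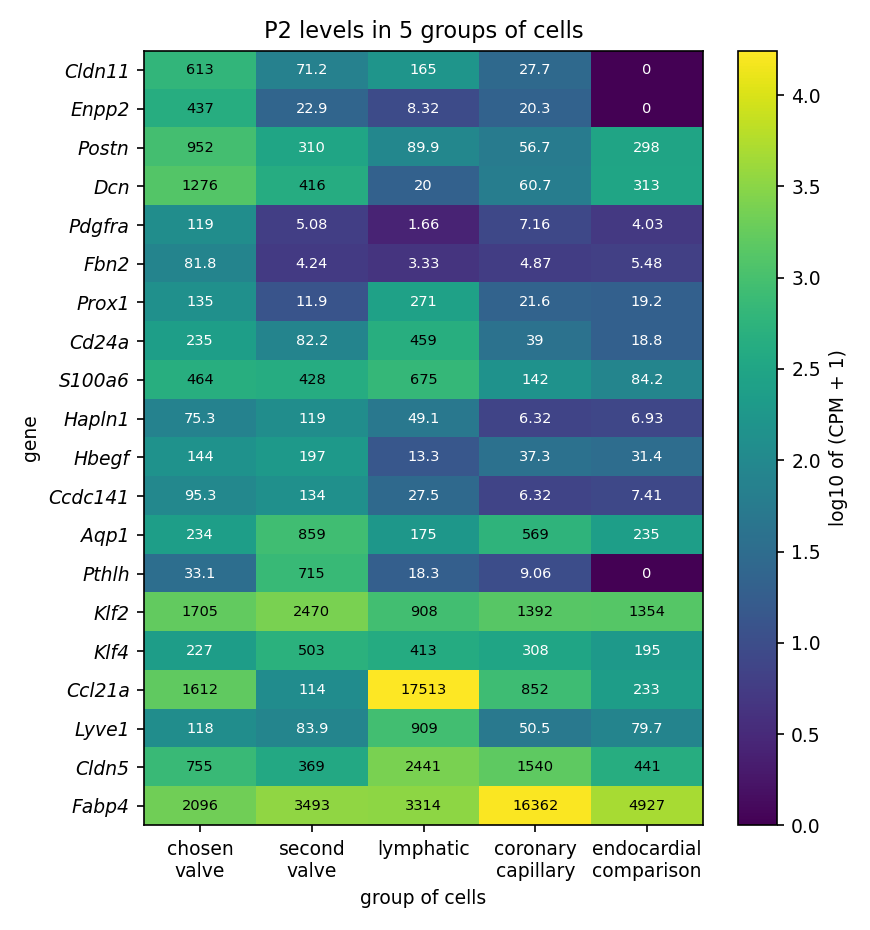
Levels at P2 of 20 genes (rows) in chosen valve cells, second valve cells, lymphatic cells, coronary capillary cells and endocardial comparison cells (columns); numbers are CPM of summed UMIs and colour is log10 of CPM plus 1. Pdgfra and Fbn2 are highest in the chosen cells, at 119 and 81.8 CPM, Prox1 is shared with lymphatic cells and Hapln1 with second valve cells; values of the genes used to choose a group are part of the choice.

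Across stages, few genes kept the same size. Of the genes tested at all 4 stages, S100a6 alone was at least 2-fold higher at every stage and none was lower at every stage. S100a6 was at 227 against 96.9 CPM at E12, where its interval covered 1 (2.35-fold, 0.852 to 5.19), at 206 against 34.5 CPM at E15, and at 1201 against 412 CPM in the adult. Among the 15 genes named for the highest mean, Nsg1 stood at a mean log2 of 1.77 (standard deviation over the 4 stages 0.96), S100a6 at 1.71 (0.52), Procr at 1.45 (0.51) and Postn at 1.36 (0.33), the last with 0.99, 1.18, 1.61 and 1.66 in stage order. The Postn mean turned negative when cells with 2 or more mesenchyme or fibroblast UMIs were left out of the chosen cells alone, with Postn at 0.620-fold at P2. Other means rested on 1 stage: Fbln1 was at 3.43 in the adult and between 0.16 and 0.22 elsewhere, and Cldn5 at 2.70 at E15 and at most 0.75 elsewhere. The 10 with the lowest mean were Tmem100, Bex4, Ednrb, Cdkn1c, Tmem2, Vwf, Plagl1, Ddit4, Dock6 and Adgrg6. Cdkn1c, an inhibitor of the cell cycle, was at -1.96, -1.87, -0.87 and -1.24 in stage order, and Ednrb, an endothelin receptor, at -2.54, -1.36, -0.29 and -1.79. Ratios at P2 were nearer to 0 than at the other stages for 8 of these 10 genes.

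**Figure D5:**
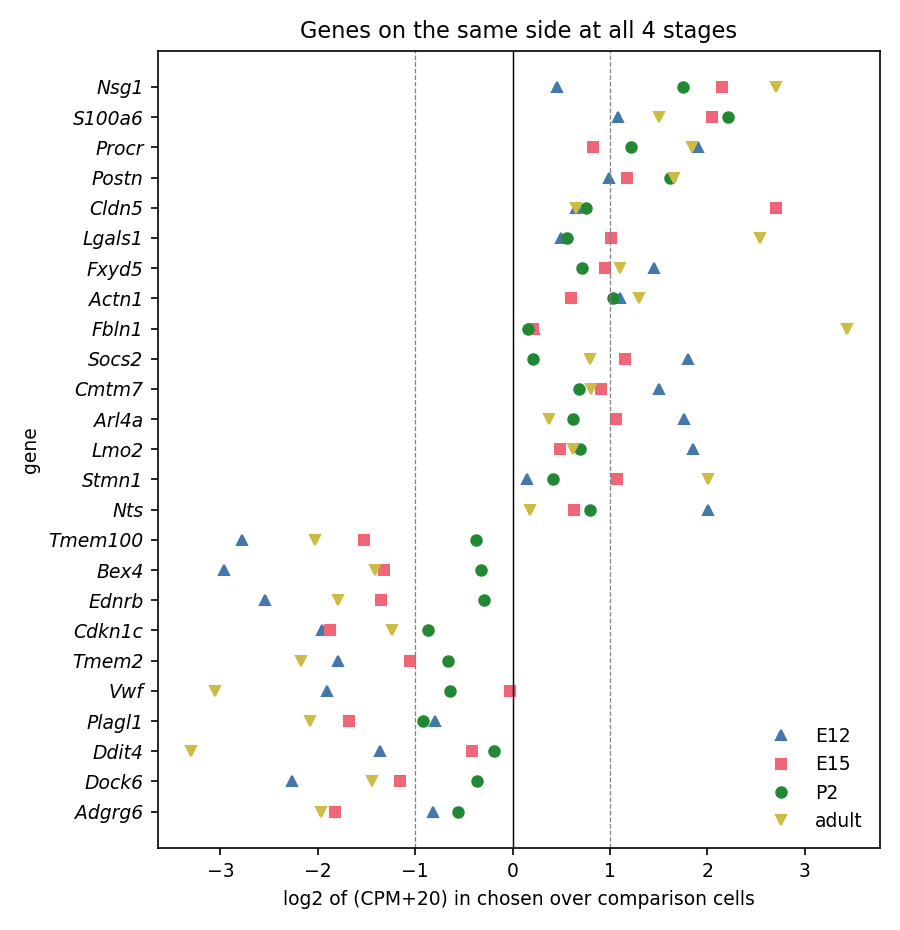
Log2 of CPM plus 20 in chosen over endocardial comparison cells (horizontal axis) for the 15 genes with the highest and the 10 with the lowest mean over the 4 stages (vertical axis), with 1 symbol per stage; dashed lines mark 2-fold. S100a6 lies beyond the right dashed line at all 4 stages, and Postn at 3 of them.

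The E12 and adult values rested on few cells. At E12, 643 of 8441 genes were at least 2-fold higher (7.62%) and 1704 lower (20.2%), with a median of all genes at -0.44, and the 13 cells held 26408 UMIs in all. On the scale of log2 of CPM plus 20, the highest gene there was Aqp1 (12 UMIs against 65, 16.5-fold, 8.09 to 30.7). Fbn2 had 13 UMIs against 399 (2.90-fold, 1.53 to 5.02), and Pdgfra had 1 UMI. In the adult, 135 of 3563 genes were higher (3.79%) and 279 lower (7.83%). Postn, Prox1 and Pdgfra were found there in 11, 5 and 3 of the 24 cells, all 5 cells with Prox1 also holding Postn, and in 27, 13 and 0 of 144 comparison cells.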

How the data were processed

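Single-cell 3' RNA sequencing (10x Genomics) was run on CD31+/CD45- mouse heart cells, 1 library per stage. The authors deposited whole UMI counts for each gene in each barcode, made with Cell Ranger 2.2 on mm10 per the submitters' processing notes. At E12, where all barcodes were deposited, those with at least 452 UMIs were kept (0.1 of the 0.99 quantile among 3000 expected cells), while the other libraries were used whole. No doublets were removed in the values reported; removal by Scrublet (scanpy 1.11.5) was an alternative.

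UMIs were summed over the cells of a group and divided by the group's total (CPM). Ratios carry exact conditional binomial intervals, levels exact Poisson and shares exact Clopper-Pearson intervals, each at 95%. Log2 differences were taken on CPM plus 20, for genes with at least 20 UMIs in both groups together and without the 13 genes of the choice. With 1 library per stage, no p-value was computed.

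Named were the genes of the lists, the 15 highest and 10 lowest by mean log2 over the 4 stages and 5 per stage by ratio, and further genes were picked after their values had been seen. The members and lists were chosen with earlier results of these data known. Sequences came from RefSeq (GRCm38.p6) and gene positions from GENCODE (GRCm38). The computations used Python 3.11.15, numpy 2.4.6, scipy 1.17.1, pandas 2.3.3 and matplotlib 3.10.9, and were tested on simulated data. A few items are not reported here.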

Additional observations from a re-analysis of the deposited data

Results flagged for a closer look

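Rgs5, a gene of pericytes, was above comparison cells at E12 (4.02-fold, 1.28 to 9.65, from 5 UMIs against 111) and below them at P2 (0.212-fold, 0.110 to 0.373) and in the adult (0.0771-fold, 0.00919 to 0.287). Zeb2, a transcription factor of mesenchymal transition, was above at E12 (3.92-fold, 1.67 to 7.89) and below at E15 (0.189-fold, 0.0228 to 0.688). The elastin gene Eln was above in the adult (2.29-fold, 1.57 to 3.31) and below at E12 (0.143-fold, 0.00361 to 0.799), from 1 UMI in chosen cells. The collagen gene Col1a2 was above in the adult (4.76-fold, 2.71 to 8.49) and below at E15 (0.366-fold, 0.146 to 0.760). These 4 genes were singled out because their ratios lay on opposite sides of 1 at different stages, and the differences between stages were not tested. Of 158274 barcodes at E12 that were under the limit of UMIs and entered no comparison, 1 met the choice, with 368 UMIs.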

How the results depend on the processing

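No paired analysis was possible because each stage was a single library and the stages share only the replicate number 1. With at least 3 choosing UMIs the shares were 0.0731, 0.667, 4.87 and 0.341% in stage order, and with cells thinned to 500 UMIs 0.128, 0.433, 0.929 and 0.141%. Without chosen cells holding 2 mesenchyme or fibroblast UMIs the E15, P2 and adult shares were 0.906, 2.095 and 0.122%, and without those holding 2 lymphatic UMIs 5.93% at P2. The 67 genes higher at P2 were 263 when thinned, 169 with 5 CPM added and 106 with at least 4 choosing UMIs. The 9 genes lower were 29 with at least 3 choosing UMIs, 15 without Scrublet doublets, 627 when thinned, 41 with 5 CPM added, 24 without mesenchyme-positive cells, 41 with at least 4 choosing UMIs, 24 without cells of the lymphatic or capillary choice and 17 without Fabp4-rich cells. Over all alternatives, the 203 genes higher and 434 lower at E15 ranged from 127 to 1068 and from 423 to 2530, and the 135 and 279 of the adult from 37 to 438 and from 101 to 969. The single gene higher at every stage became 3 with at least 3 choosing UMIs, 0 without doublets, 0 when thinned, 2 with at least 1000 UMIs per E12 cell, 3 with at least 2 endocardial UMIs in comparison cells, 2 with an endothelial UMI required of them, 3 with 5 CPM added, 7 with 1 UMI needed and 0 without mesenchyme-positive cells. The count of genes lower at every stage, 0, became 5 with at least 3 choosing UMIs, 8 when thinned, 2 with at least 2 endocardial UMIs, 1 with 5 CPM added, 10 without mesenchyme-positive cells and 1 without Fabp4-rich cells. Leaving out 1 stage at a time gave 1 to 7 and 0 to 18 genes.

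Mean log2 ratios changed sign for Lmo2 (-0.25), Stmn1 (-0.27) and Nts (-0.54) with at least 3 choosing UMIs, for Fxyd5 (-0.63), Actn1 (-0.050), Fbln1 (-0.52), Socs2 (-0.52), Cmtm7 (-0.20), Stmn1 (-1.46) and Nts (-1.44) when thinned, and for Postn (-0.99) and Lgals1 (-0.64) without mesenchyme-positive chosen cells, these cells being kept in the comparison group. Of the other gene means under all alternatives, 436 moved by less than their spread over stages and 27 by more. The causes were not tested. Alternatives with at least 4 choosing UMIs, without lymphatic or capillary choice, without Fabp4-rich cells and without adult fibroblast-gene cells were chosen after seeing the data. Scrublet marked 4 of 13, 7 of 57, 28 of 422 and 3 of 24 chosen cells, which was 30.8, 12.3, 6.64 and 12.5% in stage order. It marked 6.12, 9.47, 4.32 and 2.43% of all cells and 7.23, 11.5, 6.51 and 2.78% of comparison cells. The number of cells limited E12 most: with 13 cells, 1 UMI was 37.9 CPM, above the 20 CPM added.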
